A study of Homo sapiens with 12 samples.

Results

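The regions described here held peaks of catalytically dead Cas9 (dCas9) with each of the guides sgRNA4, sgRNA5 and sgRNA6 and with none of sgRNA1, sgRNA2 and sgRNA3. The peaks of all 9 lists were joined into regions wherever intervals shared at least 1 bp. Regions were then chosen by the presence of peaks alone. This gave 1820 of 43438 regions, or 4.19% of them. All 3 guides were present in 2598 regions, and the other 778 of those also held a peak of sgRNA1, sgRNA2 or sgRNA3.

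The data are chromatin immunoprecipitation sequencing (ChIP-seq) peak lists from HEK 293T, an established line derived from human embryonic kidney. Cells were transfected with HA-tagged dCas9 and 1 guide and collected after 3 days, and the tagged protein was pulled down with an HA antibody from chromatin sheared to about 300 bp. sgRNA4, sgRNA5 and sgRNA6 had 1 library each, with 13660, 8346 and 33611 peaks. sgRNA1, sgRNA2 and sgRNA3 had 2 replicates each, with lists of 41 to 1278 peaks. In the choice of regions they served only to leave regions out. Their peaks were also used for distances and to set apart the 778 regions with a further guide. The library with dCas9 and no guide was not analysed here, so pull-down that does not need a guide cannot be told apart from binding directed by these guides. Read depth is unknown for every library.

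dCas9 keeps the DNA search of Cas9 without its cutting. It first reads a short protospacer adjacent motif and then pairs the guide with the DNA strand, starting at the seed next to that motif. Binding to partly matching sites is known to need less pairing than cutting does, and it is known to be easier where chromatin is open. Sequences and genes at the regions were not used here, because no genome of the build of the lists (hg19) was at hand, so regions are named by hg19 position.

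The deposited score of a peak is the authors' value and depends on its own library. It was therefore turned into a score position, the percent of peaks of the same list at or below that score. Where a guide had several peaks in a region, its highest peak was used. With 1 library per guide there is no replicate error and no test between guides. Intervals given below are exact binomial (Clopper-Pearson) 95% intervals over regions or peaks and cover counting error only. Regions are not replicates, so the comparisons below are descriptions of these libraries.

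Most of the shared regions were simple. Exactly 1 peak of each guide made up 1549 of 1820 (85.1%, 83.4 to 86.7). More than 1 peak was held by 163 regions for sgRNA6, by 95 for sgRNA4 and by 83 for sgRNA5. Region length had a median of 1326 bp, ran from 447 to 7072 bp, and summed to 2.61 Mb. The sgRNA6 peaks in these regions had a median width of 963.5 bp, against 669 bp in the whole sgRNA6 list. The sgRNA4 peaks had 910 bp against 751 bp, and the sgRNA5 peaks 733.5 bp against 628 bp. Overlap was used to choose the regions and depends on width, so these widths are not independent of the choice.

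The regions were chosen by overlap of peaks, so how closely the peaks lay together is given as a description. In 1718 regions (94.4%, 93.2 to 95.4) at least 1 base was covered by a peak of all 3 guides, and the common stretch had a median of 550 bp, or 44.6% of the region. When peaks within 1000 bp were joined, the share with a common base was 80.3%. Among the regions with 1 peak of each guide, the median distance between peak centres was 147 bp for sgRNA4 and sgRNA5, 143.5 bp for sgRNA4 and sgRNA6, and 155.5 bp for sgRNA5 and sgRNA6. Centres within 100 bp of each other were found in 37.1, 36.7 and 35.8% of these regions. The displacement had no preferred side along the chromosome, with medians of 8.5, 2.5 and -5 bp in the same order. All 3 median distances are shorter than the 300 bp to which the chromatin was sheared on average, and the gel size range was 300 to 650 bp. Peaks had to be joined by overlap to be chosen, so short distances are partly built in.

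**Figure D1:**
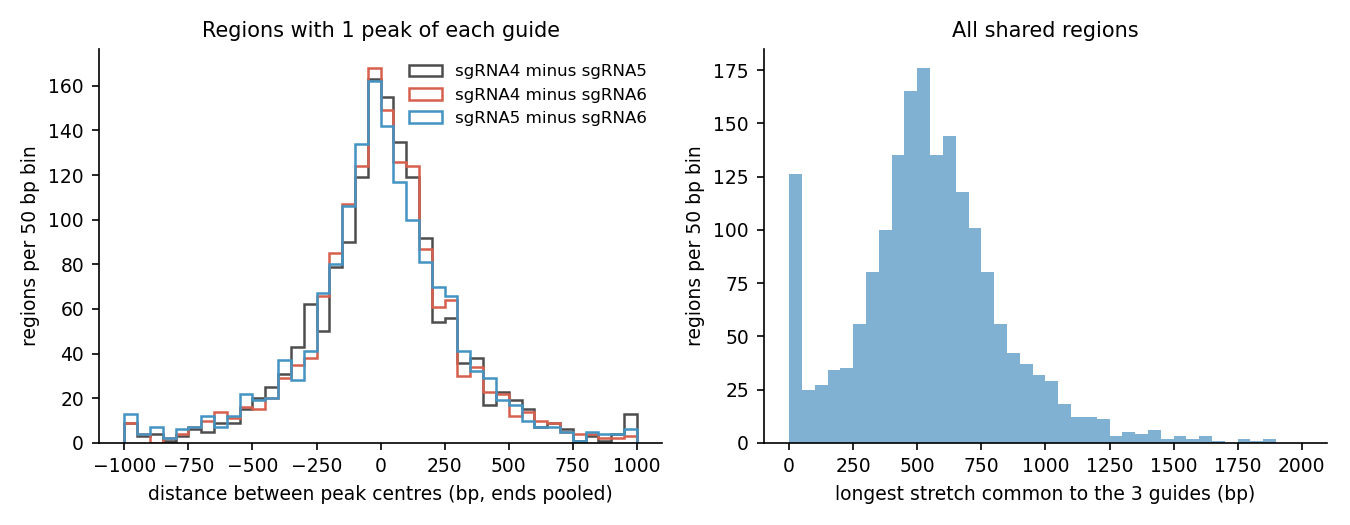
Left, signed distance between the peak centres of each pair of guides in the 1549 regions with 1 peak of each (x axis in bp, values beyond the ends pooled in the last bins; y axis, regions per bin). Right, length of the longest stretch covered by all 3 guides in the 1820 regions; the first bin includes the 102 regions with none. The 3 pairs gave nearly the same curve around 0.

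The sgRNA5 peak was the narrowest in 853 of the 1549 regions (55.1%) and lay inside the span of the other 2 peaks in 901 (58.2%). The sgRNA6 peak was the widest in 751 (48.5%) and the sgRNA4 peak in 564 (36.4%). Of the 102 regions with no common base, 87 had 1 peak of each guide. In 42 of these the sgRNA6 peak joined 2 peaks that did not touch, in 33 the sgRNA4 peak did so, and in 12 the sgRNA5 peak.

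Regions near the overlap threshold were looked up on both sides of it. The shortest overlap in the chain of peaks of a region was under 100 bp in 72 regions (3.96%) and had a median of 578 bp overall. This is the weakest link of the joined interval, and a region with several peaks of a guide can lose it and still hold all 3 guides. At chr7:2271648-2273381 that overlap was 1 bp, and at chr10:105419358-105422096 it was 2 bp, with 336 and 699 bp covered by all 3 guides elsewhere in those regions. At chr6:149866250-149868116 it was 6 bp, at chr11:34937194-34938763 8 bp and at chr22:38029359-38030980 10 bp. The regions on chromosomes 6 and 22 had 742 and 766 bp covered by all 3 guides, so of these 5 only the chromosome 11 region, with no such base, held all 3 guides through its short overlap. On the other side, 5763 regions held 2 of the 3 guides and no peak of sgRNA1, sgRNA2 or sgRNA3, and in 76 of them the nearest peak of the third guide was within 100 bp. Closest were chr11:16626422-16627659, where a sgRNA5 peak of score 54.7 was 2 bp away, chr2:105458821-105459666, with a sgRNA5 peak of 84.9 at 4 bp, and chr3:49506407-49507560, with a sgRNA4 peak of 102 at 4 bp. They were followed by chr14:65006687-65007832, with a sgRNA6 peak of 72.4 at 6 bp, and chr13:45149795-45150904, with a sgRNA5 peak of 113 at 7 bp.

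The shared regions tended to hold the higher peaks of each list, but few of the very highest. Of the sgRNA4 peaks, 14.1% lay in shared regions, as did 22.8% of the sgRNA5 peaks and 5.91% of the sgRNA6 peaks. Among the lowest 10% of peaks by score the share was 6.61% for sgRNA4 (5.31 to 8.12), 17.7% for sgRNA5 (15.1 to 20.4) and 2.26% for sgRNA6 (1.79 to 2.83). Among the top 10% it was 22.8% (20.6 to 25.2), 32.5% (29.3 to 35.7) and 15.9% (14.7 to 17.2). Within each list these intervals of the lowest and the top 10% did not overlap. Score and width were related over the whole lists, with Spearman's rho of 0.44 for sgRNA4, 0.48 for sgRNA5 and 0.51 for sgRNA6. Overlap chose the regions and depends on width, so score is not independent of the choice and these shares are a description only.

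This order ended at the top of the lists. Of the 50 highest peaks, 2 lay in shared regions for sgRNA4 (4%, 0.488 to 13.7), 5 for sgRNA5 (10.0%, 3.33 to 21.8) and 0 for sgRNA6 (upper bound 7.11%). The peaks that took their place differed by guide. With sgRNA6, 38 of the 50 (76.0%) lay in regions of sgRNA6 alone, although over its top 10% only 44.7% did. With sgRNA4, 33 of the 50 (66.0%) lay in regions of sgRNA4 alone, against 31.6% over its top 10%. With sgRNA5, 7 of the 50 (14.0%) were in regions of sgRNA5 alone, against 9.34% over its top 10%. Another 26 (52.0%) were in regions that also held sgRNA4, sgRNA6 and a guide of sgRNA1 to sgRNA3. Over the top 10% of the sgRNA5 list that share was 31.1%. These counts depend on which regions are left out for sgRNA1 to sgRNA3. Without the replicate 2 lists of those guides, 56.0% of the 50 highest sgRNA5 peaks counted as shared, against 16.0% for sgRNA4 and 10.0% for sgRNA6. The number of 50 was chosen after the values were seen. Among the 500 highest peaks the shares were 19.0, 31.6 and 16.8% for sgRNA4, sgRNA5 and sgRNA6.

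**Figure D2:**
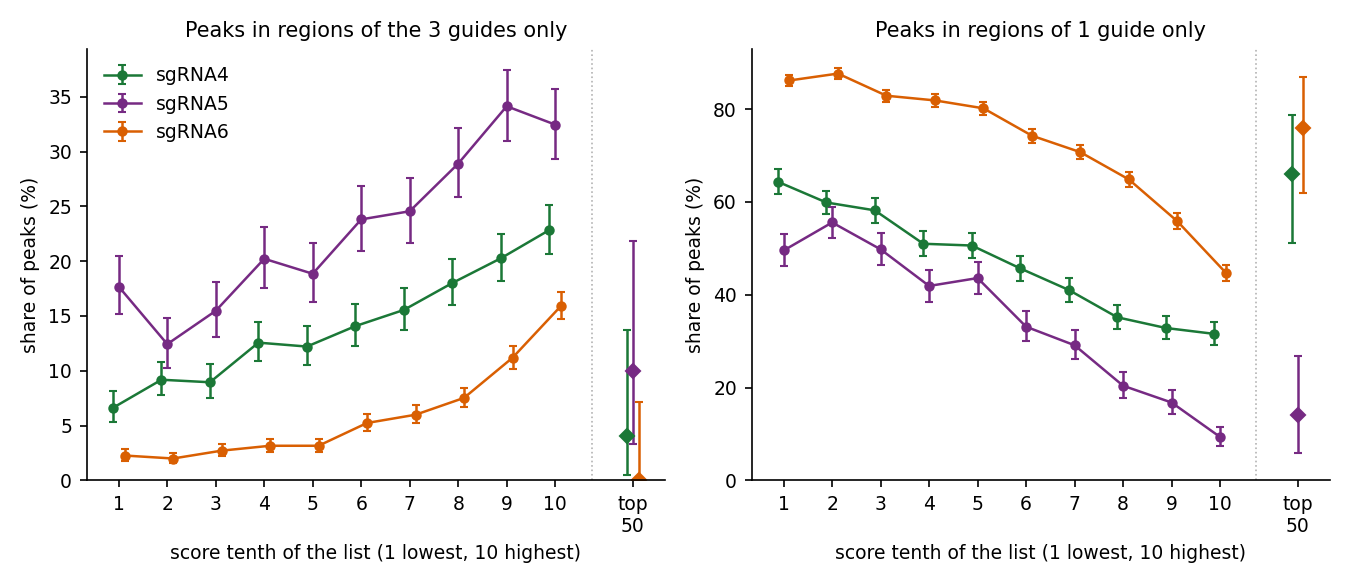
Share of each list's peaks (y axis, %) that lie in regions of sgRNA4, sgRNA5 and sgRNA6 only (left) and in regions of that guide alone (right), by 10% steps of score from lowest to highest (x axis, circles) and for the 50 highest peaks (diamonds). Bars are exact 95% binomial intervals. On the left the share is higher toward the top, though not at every step. For the 50 highest peaks it falls to 4, 10.0 and 0%. On the right the share is 66.0 and 76.0% for the 50 highest sgRNA4 and sgRNA6 peaks, and 14.0% for sgRNA5.

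The scores of the shared regions ran from 50.03 to 948 with sgRNA4 (median 93.2), from 50.03 to 1888 with sgRNA5 (median 75.5) and from 50.02 to 1346 with sgRNA6 (median 170). No list holds a score below 50, so the lower ends are the floor of the lists. The median score position was 66.6 with sgRNA4, 64.1 with sgRNA5 and 79.4 with sgRNA6. In the top 10% of their list were 312 regions for sgRNA4 (17.1%, 15.4 to 19.0), 271 for sgRNA5 (14.9%, 13.3 to 16.6) and 530 for sgRNA6 (29.1%, 27.0 to 31.3). Over all regions with a peak of the guide, those shares were 10.2, 10.3 and 10.1%. These shares come from the same peak calls that chose the regions and are a description only. When the sgRNA4 and sgRNA6 lists were cut by score to the 8346 peaks of sgRNA5, 803 regions were left and the shares were 14.1, 18.6 and 15.2%.

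Few shared regions were in the top 10% of all 3 lists. Of the 1820, 962 (52.9%) were in the top 10% of no list, 637 (35.0%) of 1, 187 (10.3%) of 2 and 34 (1.87%, 1.30 to 2.60) of all 3. Over the 2598 regions with all 3 guides the last share was 3.54%. In the 778 that also held sgRNA1, sgRNA2 or sgRNA3 it was 7.46% (5.71 to 9.53). In those 778 the shares for 0, 1 and 2 lists were 35.2, 36.5 and 20.8%. Of the 312 shared regions in the top 10% with sgRNA4, 63 were also there with sgRNA5 and 129 with sgRNA6. Of the 271 with sgRNA5, 97 were also there with sgRNA6. Regions in the top 10% with 1 guide had higher median positions with the other 2 than all 1820 had. For those 312 they were 72.8 with sgRNA5 and 85.2 with sgRNA6, against 64.1 and 79.4. At the other end, 59 of the 1820 regions (3.24%) were in the lower 50% of all 3 lists, against 9 of the 778 (1.16%). sgRNA6 had the highest score position of the 3 in 885 regions (48.6%), sgRNA4 in 473 (26.0%) and sgRNA5 in 462 (25.4%). These positions are within lists of unequal length, and the order of the guides by top 10% share, given above, changed when the lists were cut to equal length.

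Across the 1820 regions the order by score was nearly unrelated between guides. Spearman's rho was 0.11 for sgRNA4 and sgRNA5, 0.14 for sgRNA4 and sgRNA6, and 0.12 for sgRNA5 and sgRNA6. The points share their genome positions, and scores are tied in steps: 192 sgRNA5 peaks have the score 51.64, among them the leading peaks of 28 shared regions. Peak widths followed each other more, with rho of 0.34, 0.35 and 0.30 for the same pairs. In the 778 regions with a further guide, rho of the scores was 0.15, 0.27 and 0.20 and rho of the widths 0.40 for each pair. Within a list, score and width were more closely tied than either was between guides, with rho of 0.49 for sgRNA4, 0.48 for sgRNA5 and 0.59 for sgRNA6 over the shared regions.

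**Figure D3:**
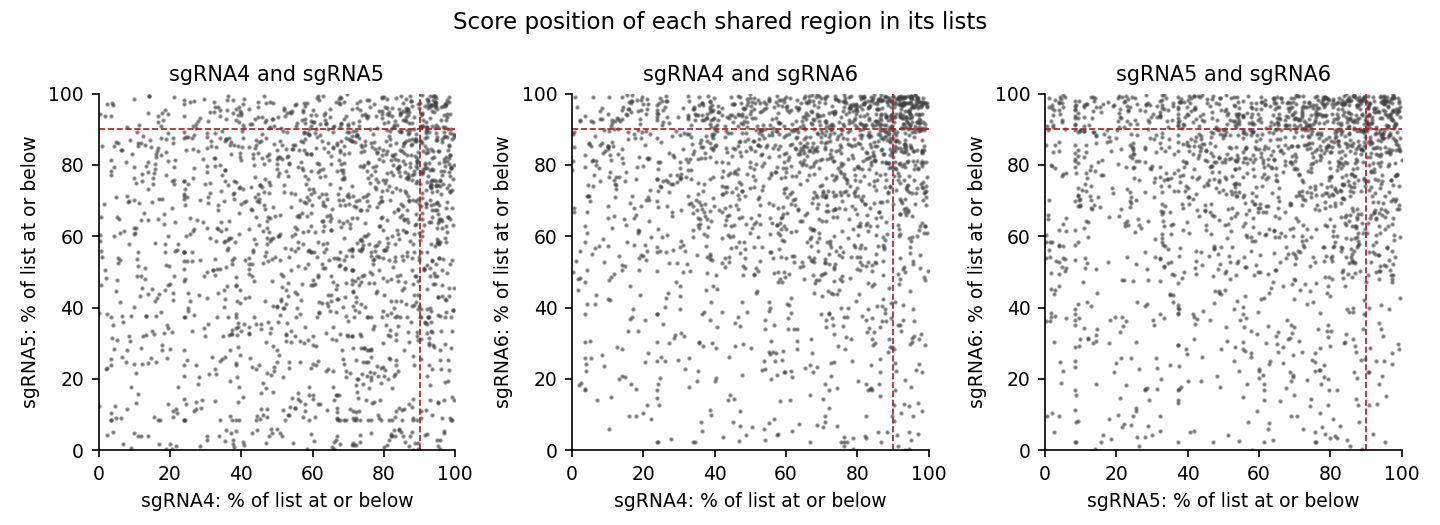
Score position of each of the 1820 shared regions with 2 guides at a time (both axes, percent of the list at or below the region's score; each point is 1 region; dashed lines mark the top 10%). Points fill the whole square, more densely toward high sgRNA6 positions, with rho of 0.11, 0.14 and 0.12; the faint rows of points are tied scores.

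The regions with the highest mean score position over the 3 lists showed what height with all 3 guides looked like. The first was chr1:212457800-212460170, with scores of 271 for sgRNA4 (rank 397), 176 for sgRNA5 (rank 233) and 623 for sgRNA6 (rank 441) and 941 bp common to all. The next was chr13:74707538-74710781, with 271, 164 and 515. The third was chr1:179850877-179853227, with 346, 144 and 510.5, and its nearest peak of a left-out guide was a sgRNA3 replicate 2 peak 3629 bp away. The best rank of these 3 regions in any list was 208, of the third region with sgRNA4.

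Others of the first 20 stood out in 1 list without falling in the rest. chr12:72665215-72666440 had the scores 214, 259 and 372, with rank 61 for sgRNA5 and 1615 for sgRNA6. chr15:80214974-80216652 reached rank 53 with sgRNA5 (score 275), with 200 for sgRNA4 and 319 for sgRNA6. chr1:112281439-112283460 reached rank 227 with sgRNA6 (788), with 208 and 149 for sgRNA4 and sgRNA5. At chr7:139043470-139045826 the peaks of the 3 guides were 2111, 2140 and 2170 bp wide and shared 1894 bp, the longest common stretch of all.

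The 20 lay on 9 chromosomes, 6 of them on chromosome 1, 4 on chromosome 17 and 3 on chromosome 8. Those on chromosome 17 were chr17:18313744-18316291, chr17:44437965-44439691, chr17:62492305-62494047 and chr17:72426484-72429096. Their mean score positions were 95.2 to 97.7, all 20 were in the top 10% of every list, and 15 had 1 peak of each guide. Their scores were 180 to 346 with sgRNA4, 121 to 275 with sgRNA5 and 267 to 788 with sgRNA6. The highest scores of the whole lists were 2436, 2319 and 3160, far above the range of these 20 regions.

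**Figure D4:**
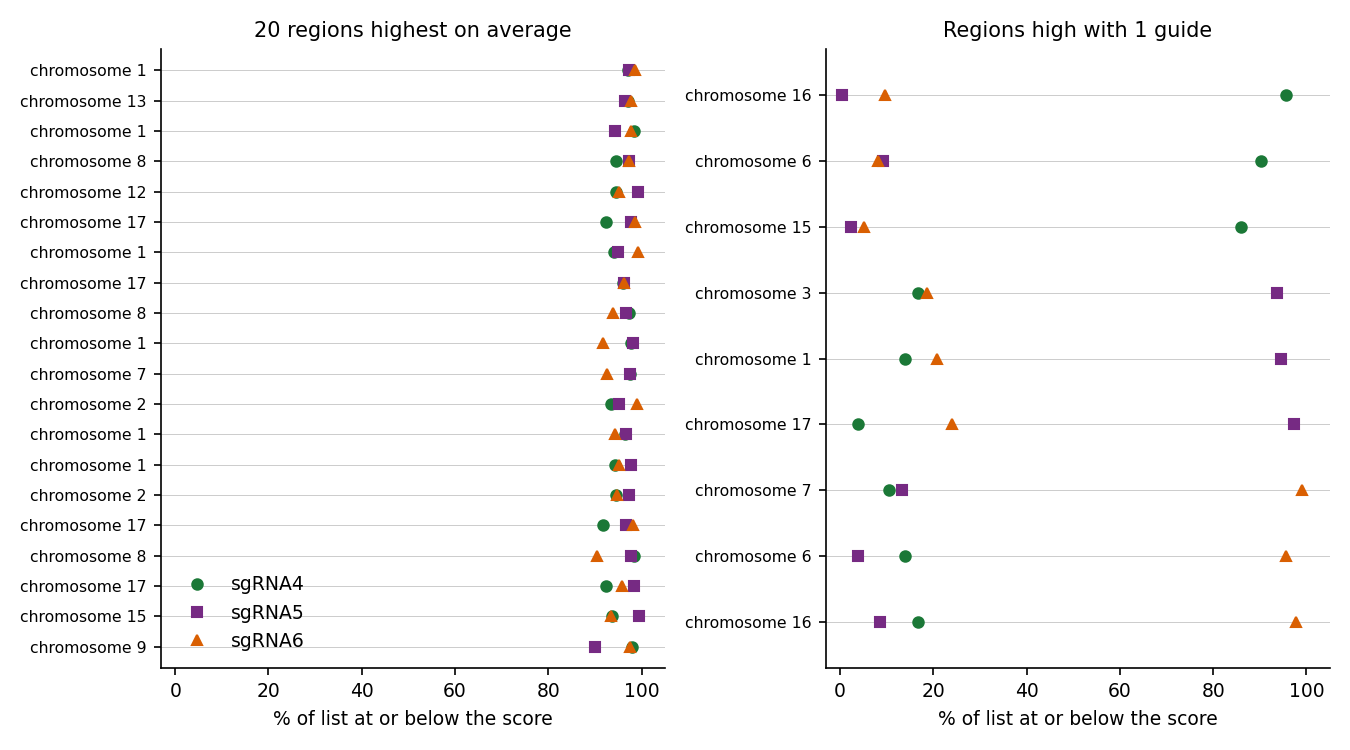
Score position (x axis, percent of the list at or below the score) with each guide for the 20 shared regions with the highest mean (left) and for the 3 regions per guide in which that guide stood farthest above the others (right); rows are regions, labelled by chromosome, and symbols are guides. The left rows lie above 90 in every list, and in each right row 1 symbol lies above 85 and the others below 25.

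In other shared regions 1 guide was high and the others were near the floor of 50. For sgRNA4 the widest gap was at chr16:30193964-30196966, with a score of 235 (rank 585) against 50.1 for sgRNA5 and 54.8 for sgRNA6. For sgRNA5 it was at chr3:139047920-139048685, with 139 (rank 529) against 55.9 for sgRNA4 and 59.5 for sgRNA6. For sgRNA6 it was at chr7:149192908-149194438, with 715 (rank 297) against 53.3 for sgRNA4 and 53.2 for sgRNA5. Some regions in the top 10% of 1 list were in the lower 50% of both others. They were 55 of 530 for sgRNA6, 16 of 312 for sgRNA4 and 11 of 271 for sgRNA5. These counts were not made for other regions, so they cannot be read as a trait of the shared regions. In the 3 regions named, the lower 2 scores all lay between 50.1 and 59.5.

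The next-widest gaps were of the same kind. With sgRNA4 they were at chr6:159290096-159291725 (169 against 51.8 and 54.2) and chr15:102263977-102264795 (143 against 50.7 and 52.6). With sgRNA5 they were at chr1:33177131-33179130 (146 against 54.7 and 61.2) and chr17:21029908-21030882 (180 against 50.9 and 63.7). With sgRNA6 they were at chr6:125420554-125421271 (383 against 54.7 and 50.9) and chr16:4323287-4324291 (526 against 55.9 and 51.6).

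The highest single score of each guide among the shared regions was looked up after the values were seen. The highest sgRNA4 score was 948 (rank 22) at chr13:77899794-77901703, with 114 for sgRNA5 and 90.4 for sgRNA6. The highest sgRNA5 score was 1888 (rank 2) at chr17:46178006-46179294, with 98.8 for sgRNA4 and 181 for sgRNA6. The highest sgRNA6 score was 1346 (rank 63) at chr1:154973315-154975061, with 75.3 for sgRNA4 and 103 for sgRNA5. The other 2 guides were at positions between 50.01 and 88.4 in their lists, the highest being sgRNA5 in the first region.

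The widest region, chr7:150753519-150760590, was 7072 bp long and held 3 peaks of each guide, 9 in all, the most of any. Its highest scores were 188 for sgRNA4, 75.3 for sgRNA5 and 661 for sgRNA6. The other 4 widest were 3856 to 4805 bp long: chr8:58121219-58126023, chr17:76164859-76169281, chr17:39966314-39970300 and chr5:172753494-172757349. The sgRNA4 and sgRNA6 peaks at the first of these were 4692 and 3875 bp wide with scores of 85.9 and 243, at score positions of 61.0 and 88.6 in their lists. After the 9-peak region, those with most peaks were chr6:149067511-149070122 and chr8:103818248-103821217 with 7 each, followed by chr3:66022685-66025583 and chr3:96531743-96534345 with 6 each.

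The shared regions were spread over chromosomes 1 to 22 and X much as the other regions were. Spearman's rho of the number of shared regions and of other regions was 0.90 over these 23 chromosomes. As a share of all regions on a chromosome they ran from 2.72% on chromosome 20 (1.91 to 3.74) to 5.27% on chromosome 6 (4.32 to 6.34), against 4.19% overall. The interval lay above 4.19% for chromosomes 1 (4.93%), 6 and 17 (5.22%), and below it for chromosomes 9 (3.08%) and 20; the remaining 18 chromosomes had intervals that included it.

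Chromosome 1 held 248 shared regions, 13.6% of them (12.1 to 15.3), against 11.5% of the other regions of the series. Among the 778 regions with a further guide its share was 21.5%. Chromosome 17 held 173 (9.51%, 8.20 to 10.9), against 7.55% of the other regions. It held 9.20% of the regions with sgRNA4 and sgRNA6 only, 7.43% with sgRNA5 and sgRNA6 only and 7.78% with sgRNA4 and sgRNA5 only. Chromosome 6 held 104 (5.71%), against 4.50% of the other regions. For the same 3 sets its shares were 4.74, 5.70 and 4.67%. Near-equal shares of these 2 chromosomes were thus found in a set with 2 of the guides. Chromosome 19, rich in genes, held 123 (6.76%, 5.65 to 8.01), against 6.93% of the others. Chromosome 18, poor in genes, held 16 (0.879%), against 1.25% of the others, and as a share of its 535 regions this was 2.99% (1.72 to 4.81). Chromosome Y had 42 regions, none of them shared.

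**Figure D5:**
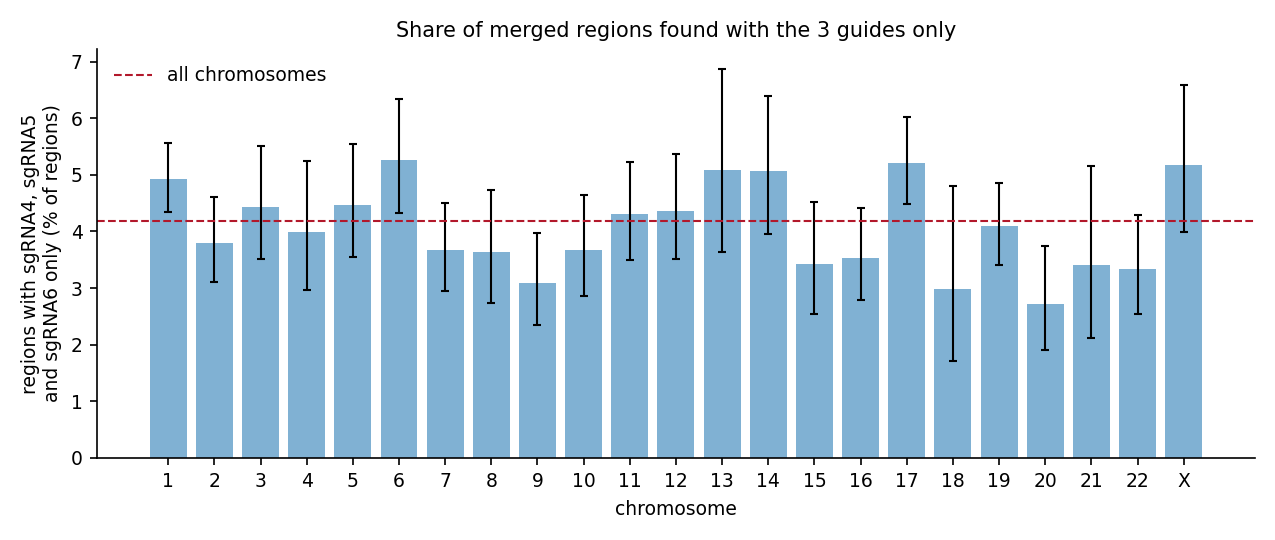
Shared regions as a share of all merged regions on each chromosome (y axis, %; x axis, chromosomes 1 to 22 and X). Error bars are exact 95% binomial intervals, and the dashed line is the 4.19% of the whole series. Bars run from 2.72% (chromosome 20) to 5.27% (chromosome 6).

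Along the chromosomes, 566 shared regions (31.1%, 29.0 to 33.3) had another within 100 kb, and the median gap to the nearest was 224 kb. Of the regions with sgRNA5 and sgRNA6 only, a set of near the same size (1790), 29.2% had another of their own kind within 100 kb. Joined at gaps of up to 100 kb, the shared regions formed 222 groups of at least 2, of which 154 were pairs and 68 were larger. The other 1254 stood alone. Over 2687 windows of 1 Mb that held any region, the number of shared regions followed the number of other regions with a rho of 0.49.

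The largest group had 14 shared regions over 461 kb, at chr16:30365764-30826714, with gaps of 5746 to 95921 bp between neighbours. Scores there ran from 51.0 to 300 with sgRNA4 (median 124), from 51.3 to 144 with sgRNA5 (median 80.8) and from 62.1 to 440.5 with sgRNA6 (median 257). The span held 51 regions in all, among them 14 with sgRNA6 only, 7 with sgRNA4 only and 4 that also had a guide of sgRNA1 to sgRNA3. It lies in the 1 Mb window that held the most shared regions, chr16:30000001-31000000, with 18 of 106 (17.0%, 10.4 to 25.5).

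The windows that followed held fewer. chr17:43000001-44000000 held 10 of 85 (11.8%). There were 9 of 44 (20.5%) in chr14:24000001-25000000, 9 of 106 in chr1:156000001-157000000, and 9 of 92 in each of chr17:7000001-8000000 and chr17:18000001-19000000. These 4 windows were tied for the third to the sixth place. The second largest group was 9 regions over 273 kb at chr1:154971313-155243845. The third was 7 regions over 300 kb at chr19:12777222-13077006.

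Distance to the peaks of the left-out guides was compared next. A peak of sgRNA1, sgRNA2 or sgRNA3 lay within 10 kb of 86 of them (4.73%, 3.80 to 5.80). The corresponding share was 5.22% (4.51 to 6.01) for regions of sgRNA4 and sgRNA6 only, 4.92% (3.96 to 6.02) for sgRNA5 and sgRNA6 only, and 6.67% (4.54 to 9.38) for sgRNA4 and sgRNA5 only. For regions of 1 guide it was 4.35% (3.86 to 4.88) with sgRNA4, 4.02% (3.33 to 4.80) with sgRNA5 and 3.65% (3.42 to 3.89) with sgRNA6. The intervals of the shared regions overlapped those of all 6 of these sets. Within 1000 bp the number was 21. Most peaks of the left-out guides are in their replicate 2 lists. Without those lists a larger set of 2561 regions was chosen, and the share of that set within 10 kb was 0.195%. With all lists, the nearest shared region was chr15:66083503-66084457, 2 bp from a sgRNA1 replicate 2 peak of score 84.9. Its scores were 189, 60.1 and 78.1 for sgRNA4, sgRNA5 and sgRNA6. Next were chr17:46100655-46102256 at 27 bp, chr1:25572877-25574826 at 30 bp, chr11:65189374-65191025 at 54 bp and chr1:115053756-115054908 at 85 bp. The first 4 of these 5 neighbours were in the sgRNA1 replicate 2 list and the last in that of sgRNA2 replicate 2.

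Set beside regions with fewer of the 3 guides, the shared regions had higher score positions with each guide. With sgRNA4 the median position was 66.6 in the shared regions, 53.7 with sgRNA4 and sgRNA6 only, and 40.5 with sgRNA4 only. With sgRNA5 it was 64.1, against 49.7 with sgRNA5 and sgRNA6 only and 34.6 with sgRNA5 only. With sgRNA6 it was 79.4, against 64.9 with sgRNA4 and sgRNA6 only, 66.8 with sgRNA5 and sgRNA6 only and 43.2 with sgRNA6 only. Regions with all 3 guides and a guide of sgRNA1 to sgRNA3 stood higher still, at 76.4, 81.7 and 85.4. The order was the same with all 3 guides, and for sgRNA5 the step from the shared regions to those with a further guide was the largest of the 3. The number of guides enters how all these sets were made, so the order was not tested.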

How the data were processed

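Peak lists of 9 HA ChIP-seq libraries were used, and 3 of the 12 samples described were not analysed here. Per the submitters' processing notes, reads were handled with Bowtie, Bowtie2 and MACS and the build is hg19; no version is given in the sources used here. A deposited list has 1 line per peak with its interval and a score; the score is the authors' value, called per library, and is not comparable between libraries. Starts were raised by 1 so that coordinates count from 1.

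Peaks sharing at least 1 bp were joined into regions over all lists. The set of regions, the measures and the named regions were chosen with earlier results of these data known. Named were the 20 regions with the highest mean score position, per guide the 3 with the largest gap to the others, the 5 widest, the 5 with most peaks, the 5 just inside and just outside, the 5 fullest 1 Mb windows with ties, and the 5 nearest to a left-out guide. Joining was tested on simulated data with 1 peak per guide in a region, where 60 of 60 planted regions were recovered. The planted peaks of a region always overlapped and the regions stood well apart. Short overlaps, several peaks of a guide and near misses were therefore not tested. No p-values were computed, since each of the 3 guides has 1 library. Planned sequence and gene comparisons were not run. Python 3.11.15, pandas 2.3.3 and scipy 1.17.1 were used. Alternatives were stricter and looser joining, cut lists, and leaving out either replicate of sgRNA1 to sgRNA3.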

Additional observations from a re-analysis of the deposited data

How the results depend on the processing

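No paired analysis was possible because sgRNA4, sgRNA5 and sgRNA6 have 1 library each and no result comes from a test. Of 108 alternative values for 13 results, 71 stayed within the limit set for them and 37 did not. The limit was the 95% interval of a share, 1.5 times a count, or 1 SD over the 3 pairs of guides for mean rho. Shares and counts cannot change sign, and mean rho stayed positive. Why values moved was not tested beyond what each alternative's construction shows.
The count of 1820 shared regions was 825 with the higher-scoring 50% of each list and 803 with the sgRNA4 and sgRNA6 lists cut to the length of the sgRNA5 list. The share with bases common to all 3 guides was 100% when peaks had to overlap by 50% of both, 98.3% with centres within 500 bp, 80.3% when peaks within 1000 bp were joined, 96.0% with the higher 50%, and by construction 100% when a common base was required. Mean rho of the scores (0.12) was 0.17 with 50% overlap, 0.10 with the higher 50%, 0.087 with equal lists, 0.33 for width in place of score, and 0.12 to 0.17 without 1 replicate of sgRNA1 to sgRNA3. The share on chromosome 19 was 5.23% with equal lists. Another shared region within 100 kb was found for 24.9% with 50% overlap, 27.2% with centres within 500 bp, 34.2% with joining at 1000 bp, 19.4% with the higher 50%, 18.4% with equal lists, 5.77% at 10 kb, and 31.3 to 40.6% without 1 replicate. A sgRNA1 to sgRNA3 peak within 10 kb was found for 6.67% with 50% overlap, 3.63% with joining at 1000 bp, 2.79% with the higher 50%, 1.15% at 1000 bp, and 0.195 to 4.54% without 1 replicate. The share in the top 10% of the list was, for sgRNA4, 13.5% with the higher 50%, 14.1% with equal lists and 17.3 to 20.1% without 1 replicate. For sgRNA5 it was 18.3% with 50% overlap, 18.6% with equal lists and 14.9 to 20.2% without 1 replicate. For sgRNA6 it was 24.8% with the higher 50%, 15.2% with equal lists and 29.0 to 32.3% without 1 replicate. The share of the 50 highest peaks in shared regions, an alternative chosen after seeing the data, was 4 to 16% for sgRNA4, 10 to 56% for sgRNA5 and 0 to 10% for sgRNA6 without 1 replicate, the higher value always without replicate 2. Read depth is unknown, so no limit of detection can be given, and the absence of a sgRNA1 to sgRNA3 peak from lists of 41 to 1278 peaks does not show absence of signal.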
